A study of Mus musculus with 14 samples.

Results

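Transcript 3′ ends of 10 genes that write, erase or read methylation of lysine residue K9 of histone H3 (H3K9) were followed in 14 libraries from primary mouse cell lines. The genes, out of 35449 in the files, were taken as a named list: Setdb1, Ehmt1, Ehmt2, Suv39h2, Trim28, Cbx1, Cbx3, Cbx5, Kdm3a and Kdm4c. The list is defined by function, and all 10 were found. The lines carried the knockout-first targeting of H3f3a (KO), a gene for the histone variant H3.3, or were wild type (WT), and all came from untreated embryos at E13.5. Embryonic fibroblasts (MEFs) were grown from bodies without internal organs, and neurospheres, floating cultures of neural stem cells and precursors, from heads. There were 3 KO and 3 WT neurosphere lines, and 5 KO and 3 WT MEF lines, described as independent lines. No strain, embryo sex or litter is given for them, nor whether MEF and neurosphere lines came from the same embryos, as numbers in the deposited file names may hint, so lines were treated as unpaired, and 1 library was made per line.

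Methyl groups on H3K9 mark silent chromatin. The enzymes Suv39h2 and Setdb1 place trimethyl marks, Setdb1 at repeats and at genes to which Trim28 (KAP1) is brought by zinc finger proteins, while Ehmt1 (GLP) and Ehmt2 (G9a) act as a pair and place mono- and dimethyl marks. The HP1 proteins, from Cbx5 (HP1 alpha), Cbx1 (HP1 beta) and Cbx3 (HP1 gamma), bind the methylated residue. Kdm3a removes mono- and dimethyl marks and Kdm4c trimethyl marks. H3.3 itself is deposited at active genes by HIRA and at telomeres and silent repeats by DAXX and ATRX.

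H3f3a was at 26.3 to 70.9 CPM (counts per 1000000 counts, after scaling) in KO neurospheres, against 1970 to 2417 CPM in WT neurospheres, and at 7.29 to 18.8 CPM in KO MEFs, against 847 to 1427 CPM in WT MEFs, so that every library matched its genotype label. Libraries held 1669406 to 3296178 counts in genes. Summed CPM of 10 neural stem and precursor markers was 8727 to 14290 in neurospheres and 101 to 331 in MEFs, and that of 10 fibroblast markers was 41.5 to 178 in neurospheres and 15083 to 23071 in MEFs. Each line was set against the mean of the other lines of its own group. Of the MEF lines, KO MEFs 3 and WT MEFs 2 stood farthest, with root mean square differences of 0.951 and 1.00 on the log2 scale. The other MEF lines were at 0.517 to 0.707, with fewer lines behind the mean in WT than in KO MEFs. KO neurospheres 2 and 3 were at 0.91 and 0.941, and the other neurosphere lines at 0.681 to 0.787. Of 7 macrophage markers, 3 were at 0 in all KO neurospheres and 5 in all WT neurospheres, and their summed CPM reached at most 2.34 in neurospheres, 97.3 in KO MEFs and 177 in WT MEFs.

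Cbx3 was the most abundant of the 10 genes and Suv39h2 the least. Per transcript length, Cbx3 averaged 811 TPM in KO neurospheres, 1058 TPM in WT neurospheres, 731 TPM in KO MEFs and 589 TPM in WT MEFs. Suv39h2 averaged 1.12 TPM in KO neurospheres, 0.616 TPM in WT neurospheres, 1.83 TPM in KO MEFs and 2.22 TPM in WT MEFs. Cbx3 was first and Suv39h2 last in TPM in all 4 groups. Trim28 came next after Cbx3 in TPM in both MEF groups and after Cbx5 in both neurosphere groups. This place rested on a short transcript: 75.7% of the Trim28 reads were assigned to Trim28-203, annotated as a retained intron of 565 nucleotides that ends close to the 3′ end of the gene, and division by so short a length raises TPM. On the CPM scale, which for 3′ end reads needs no length, Cbx3, Cbx5 and Cbx1 ranked highest, in this order, in all 4 groups and Suv39h2 was again last.

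**Figure D1:**
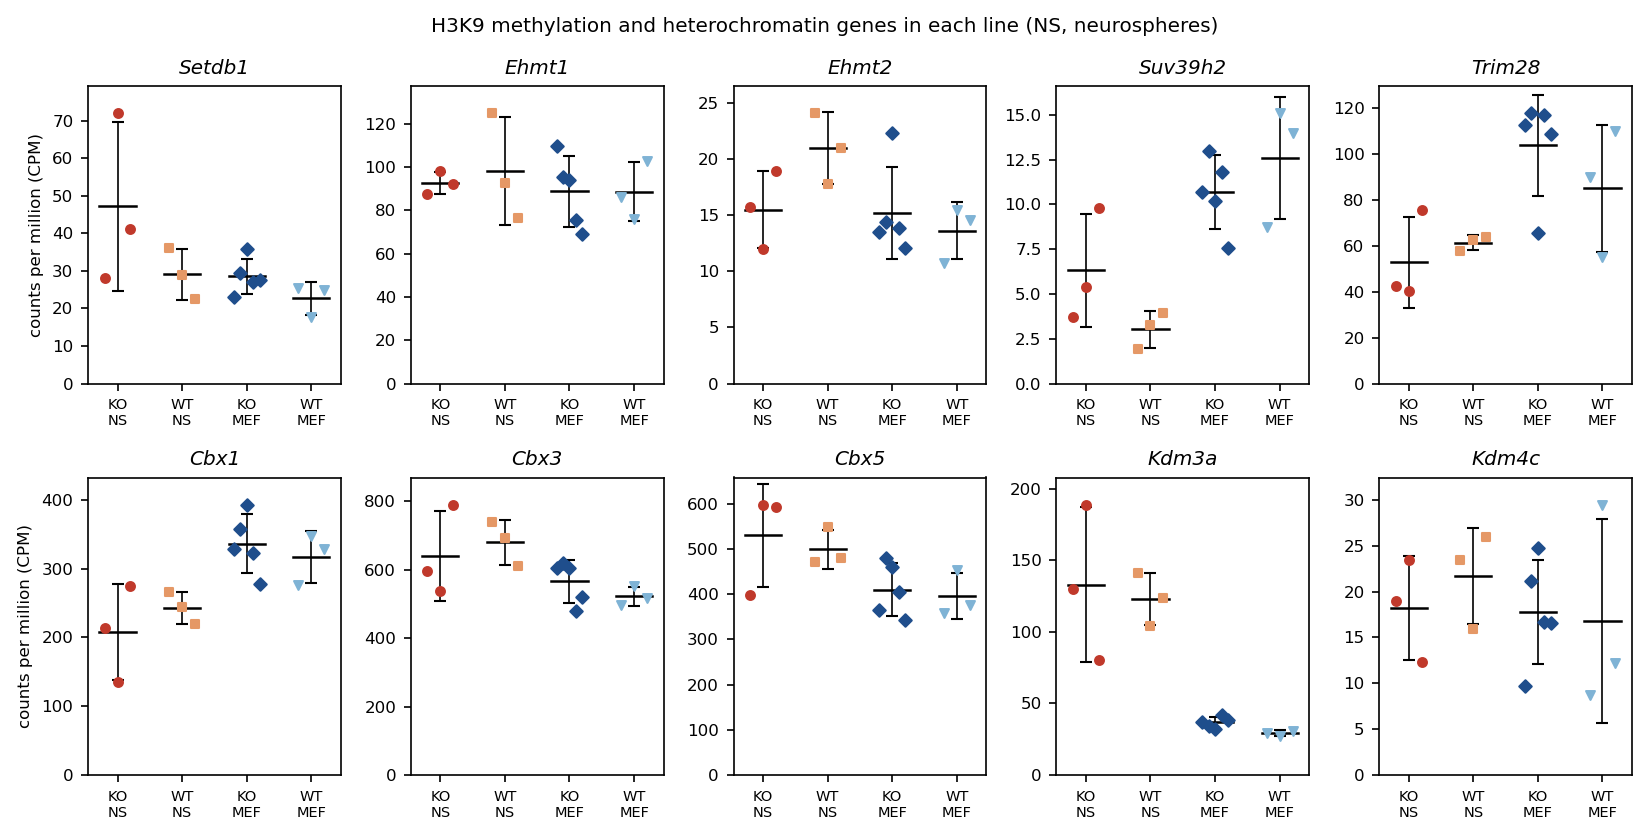
CPM of the 10 genes in each line (points), with the mean (long bar) and SD (thin bar) of KO neurospheres (KO NS, n = 3), WT neurospheres (WT NS, n = 3), KO MEFs (n = 5) and WT MEFs (n = 3). Each axis starts at 0 and has its own scale. Kdm3a in all neurosphere lines lay above all MEF lines, while KO and WT lines of 1 cell type overlapped for the other genes.

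Kdm3a had the largest difference between neurospheres and MEFs among the 10 genes in both genotypes, and Suv39h2 the next largest in WT lines. Kdm3a was higher in neurospheres of both genotypes, 3.66-fold between the KO lines and 4.25-fold between the WT lines. Suv39h2 was 4.06-fold lower in WT neurospheres than in WT MEFs, and Trim28 and Cbx1 were 1.94-fold and 1.59-fold lower in KO neurospheres than in KO MEFs. In KO neurospheres against KO MEFs, 3 of the 10 genes passed an adjusted p of 0.05, against 51.6% of the 11413 genes tested, and in WT neurospheres against WT MEFs 2 of 10 passed, against 41.6% of 11080 genes. The lines of both groups did not overlap for 2 of the 10 genes in the KO comparison (49.8% of all genes) and for 6 of 10 in the WT comparison (57.1%). Tests were edgeR quasi-likelihood tests with Benjamini-Hochberg adjustment over all genes tested, and the KO and WT comparisons share no library. In these bulk cultures, fewer cells expressing a gene and less RNA per cell cannot be told apart.

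Kdm3a, an H3K9 demethylase whose transcript is known to be raised by hypoxia and which acts in spermatogenesis and in metabolic gene regulation, lies at chr6:71588972-71632990 (GRCm38, minus strand). It had 130, 189 and 80.5 CPM in KO neurospheres and 141, 104 and 124 CPM in WT neurospheres. It had 36.9, 34.6, 32.1, 41.6 and 38.5 CPM in KO MEFs and 29.4, 27.3 and 31.1 CPM in WT MEFs. The lowest neurosphere line was thus at 80.5 CPM and the highest MEF line at 41.6 CPM. The log2 difference was 1.87 ± 0.25 (SE, edgeR adjusted p = 0.000235) between KO neurospheres and KO MEFs and 2.09 ± 0.22 (SE, edgeR adjusted p = 0.000425) between WT neurospheres and WT MEFs. It passed in all 16 alternatives of the KO comparison and all 14 of the WT comparison, with adjusted p up to 0.0108 and 0.00378 in edgeR, DESeq2 or limma. Almost all of its reads, 95.5%, were assigned to Kdm3a-201, the 4816-nucleotide coding transcript.

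Suv39h2, an enzyme of H3K9 trimethylation best known from testis and from pericentric heterochromatin, lies at chr2:3455815-3475031 (GRCm38, minus strand) and is a low-count gene here, with 5 to 28 counts per neurosphere line and 20 to 46 per MEF line. It had 3.72, 5.41 and 9.80 CPM in KO neurospheres, 1.91, 3.27 and 3.91 CPM in WT neurospheres, 10.7, 13, 10.2, 11.8 and 7.55 CPM in KO MEFs, and 8.73, 15.1 and 14 CPM in WT MEFs. All WT neurospheres lay below all WT MEFs, while KO neurospheres 3 lay within the range of the KO MEFs. The log2 difference was -0.72 ± 0.38 (SE, edgeR adjusted p = 0.143) in the KO comparison and -2.02 ± 0.45 (SE, edgeR adjusted p = 0.00902) in the WT comparison. The WT call held in all 14 alternatives, with log2 values of -2.25 to -0.98 and adjusted p of 0.00173 to 0.0395. The KO comparison passed only without KO neurospheres 3 (log2 difference -1.21, edgeR adjusted p = 0.0358), and over its 16 alternatives the adjusted p was 0.0358 to 0.399. Dclre1c overlaps Suv39h2 on the opposite strand and had 351.7 counts over the 14 libraries against 323.0 for Suv39h2. The kit marks strand, but the sources used here do not say whether strand was used in counting.

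Kdm3a and Suv39h2 had the largest differences between the cell types among the 10 in WT lines, in opposite directions. The sequences just before their RefSeq starts are therefore shown. They are RefSeq promoter windows on build GRCm38.p6, cut to the 250 bases before the start, at chr6:71632918-71633167 (minus strand) for Kdm3a and chr2:3474987-3475236 (minus strand) for Suv39h2. Capitals mark the core of the hypoxia response element, searched as ACGTG or GCGTG on both strands.
Kdm3a: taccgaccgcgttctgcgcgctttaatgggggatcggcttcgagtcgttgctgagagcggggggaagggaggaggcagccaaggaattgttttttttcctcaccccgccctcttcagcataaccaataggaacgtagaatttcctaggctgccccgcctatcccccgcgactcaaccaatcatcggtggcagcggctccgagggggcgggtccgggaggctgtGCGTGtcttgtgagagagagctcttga
Suv39h2: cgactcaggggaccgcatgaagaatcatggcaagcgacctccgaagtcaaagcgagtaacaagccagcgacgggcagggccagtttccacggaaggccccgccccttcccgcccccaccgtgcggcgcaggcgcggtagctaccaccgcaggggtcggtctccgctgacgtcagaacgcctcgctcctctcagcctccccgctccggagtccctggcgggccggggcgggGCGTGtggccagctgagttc
Each window held 1 match, both as GCGTG close to the RefSeq start. Of the 32851 windows of this length in the table, 38.6% held at least 1. In GENCODE, Kdm3a starts at position 71632990 and Suv39h2 at 3475031, inside these windows. Both matches thus lay within the GENCODE genes. Both were rich in CpG, with 20 in the Kdm3a and 27 in the Suv39h2 window, against a median of 6 over all windows. The table lists other Kdm3a starts at positions 71632686 and 71609139, whose windows held no match. All 10 genes had an entry, and all except Cbx1 had a match in at least 1 window. Kdm4c had 6 in 1 of its windows and Ehmt2 had 4 in each, and neither gene passed between the cell types. The motif was thus not particular to Kdm3a and Suv39h2.

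Trim28, the corepressor that brings Setdb1 to its targets, lies at chr7:12999114-13031035 (GRCm38, plus strand). It had 42.6, 40.3 and 75.6 CPM in KO neurospheres and 57.8, 62.6 and 64.0 CPM in WT neurospheres. It had 113, 118, 65.6, 117 and 109 CPM in KO MEFs and 90.1, 55.0 and 110 CPM in WT MEFs. KO neurospheres 3 (75.6 CPM) lay above KO MEFs 3 (65.6 CPM), so the KO groups overlapped, and WT MEFs 2 lay below all WT neurospheres. The log2 difference was -0.96 ± 0.28 (SE, edgeR adjusted p = 0.0156) between KO neurospheres and KO MEFs and -0.45 ± 0.28 (SE, edgeR adjusted p = 0.235) between WT neurospheres and WT MEFs. The KO call ended without KO neurospheres 1 (log2 difference -0.82, adjusted p = 0.0679 in edgeR) or KO neurospheres 2 (-0.79, adjusted p = 0.0684), and the WT comparison passed without WT MEFs 2 (-0.71, adjusted p = 0.0308). Over all alternatives the adjusted p was 0.00305 to 0.156 in the KO and 0.0308 to 0.602 in the WT comparison.

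Cbx1 (HP1 beta), at chr11:96789127-96808640 (GRCm38, plus strand), had 214, 135 and 275 CPM in KO neurospheres and 266, 244 and 220 CPM in WT neurospheres. It had 329, 357, 393, 322 and 278 CPM in KO MEFs and 276, 348 and 329 CPM in WT MEFs. Every neurosphere line lay below every MEF line, by as little as 275 CPM in KO neurospheres 3 against 276 CPM in WT MEFs 1. The log2 difference was -0.67 ± 0.23 (SE, edgeR adjusted p = 0.0341) in the KO comparison and -0.36 ± 0.19 (SE, edgeR adjusted p = 0.166) in the WT comparison. The KO call ended without KO neurospheres 1 or 2, or without KO MEFs 1, 2, 3 or 4, where the log2 difference was -0.69 to -0.42 and the edgeR adjusted p 0.0559 to 0.103. Over all 16 alternatives its adjusted p ran from 0.00659 to 0.633, the highest with protein_coding transcripts only, since 98.4% of Cbx1 reads were assigned to Cbx1-204, annotated as subject to nonsense-mediated decay.

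The other 6 genes did not pass between the cell types. Setdb1 averaged 47.2 ± 22.6 CPM in KO neurospheres and 28.6 ± 4.69 CPM in KO MEFs (SD, n = 3 and 5), a log2 difference of 0.73 with a 95% interval of 0.07 to 1.40 (edgeR adjusted p = 0.0621). It passed without KO MEFs 3 (0.84, edgeR adjusted p = 0.0394) and without KO neurospheres 1 (1.00, edgeR adjusted p = 0.0196), as well as with all 14 libraries in 1 fit (0.71, edgeR adjusted p = 0.0446), and its adjusted p over the 16 alternatives was 0.0196 to 0.344. Cbx5 also passed without KO neurospheres 1 (0.56, edgeR adjusted p = 0.0439, against 0.0439 to 0.805 over 16 alternatives). Ehmt2 was at 17.8 to 24.1 CPM in WT neurospheres and 10.7 to 15.5 CPM in WT MEFs, with no overlap, and had a log2 difference of 0.64 (95% interval -0.03 to 1.31, edgeR adjusted p = 0.111). Cbx3 was at 610 to 739 CPM in WT neurospheres and 498 to 553 CPM in WT MEFs, and Cbx5 at 471 to 548 CPM in WT neurospheres and 358 to 454 CPM in WT MEFs, both without overlap. Their log2 differences were 0.40 (edgeR adjusted p = 0.121) and 0.36 (edgeR adjusted p = 0.175). Cbx3 passed on the TPM scale in limma (0.88, adjusted p = 0.0378, against 0.0378 to 0.312 over 14 alternatives), a scale on which its short transcripts weigh more. Ehmt1, the partner of Ehmt2, was at 76.4 to 125 CPM in WT neurospheres and 76.2 to 103 CPM in WT MEFs. Kdm4c was at 15.9 to 26.0 CPM in WT neurospheres and 8.73 to 29.5 CPM in WT MEFs, and it passed without WT MEFs 2, the line with 29.5 CPM (log2 difference 1.05, edgeR adjusted p = 0.0497, against 0.0497 to 0.912 over 14 alternatives). For the whole list the median log2 difference was 0.07 between KO neurospheres and KO MEFs and 0.37 between WT neurospheres and WT MEFs, against -0.01 and 0.02 over all genes tested.

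**Figure D2:**
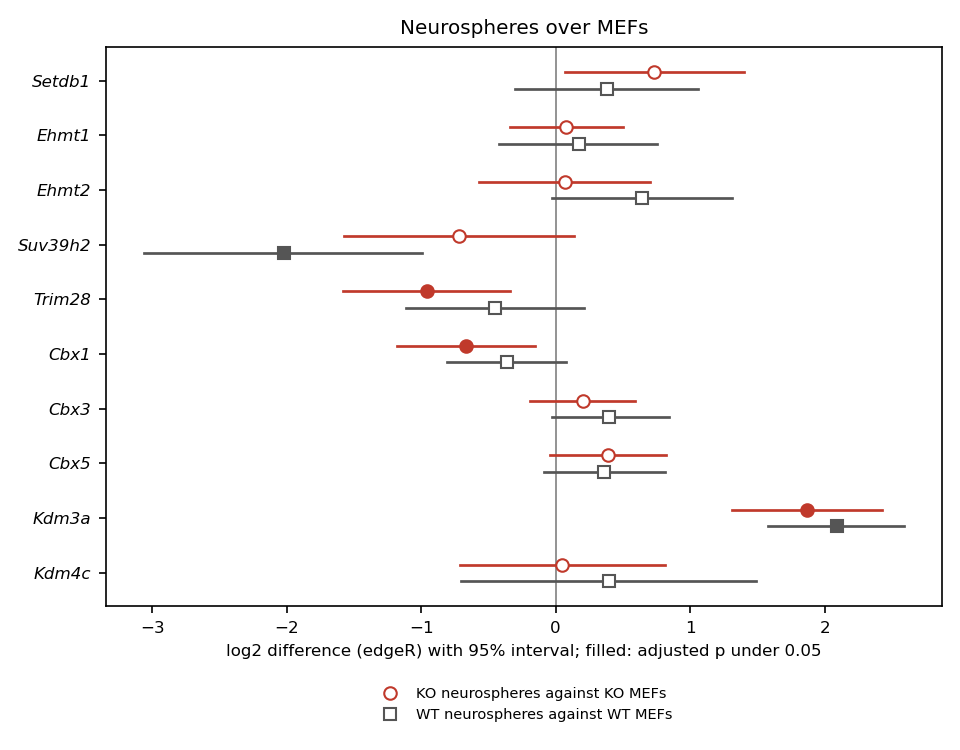
Log2 difference of neurospheres over MEFs for each gene with its 95% interval, in KO lines (circles, 3 against 5) and WT lines (squares, 3 against 3), from the edgeR fit of each comparison. Filled symbols have an adjusted p under 0.05. Kdm3a is near 2 in both genotypes, and Suv39h2 lies at -0.72 in KO and -2.02 in WT lines.

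None of the 10 genes passed an adjusted p of 0.05 between KO and WT lines, in neurospheres or in MEFs. In KO neurospheres against WT neurospheres 0 of 9 tested genes passed, where 0.00941% of 10624 genes did (1 gene, H3f3a, log2 difference -5.37), and Suv39h2 was left out by the filter on low counts. In KO MEFs against WT MEFs 0 of 10 passed, where 0.00927% of 10785 genes did (again only H3f3a, -6.09). No member had an unadjusted p under 0.05 in either comparison, and DESeq2 called none of them. The median log2 difference of the members was -0.07 in neurospheres and 0.09 in MEFs, against 0.01 and 0.00 over all genes tested. In neurospheres 3 of 9 values were positive, and in MEFs 9 of 10. Of the positive MEF values, Ehmt1 was at 0.00 and Cbx5, Kdm4c and Cbx1 at 0.05 to 0.08. Each of these, and Ehmt2 at 0.15, changed sign under some alternative. The share of positive values over all genes was not computed.

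The largest KO against WT difference among the 9 members tested in neurospheres was that of Setdb1. It had 28.1, 72.1 and 41.3 CPM in KO neurospheres and 36.0, 29.0 and 22.4 CPM in WT neurospheres, and the lowest KO line lay within the WT range. The log2 difference was 0.71 with a 95% interval of -0.16 to 1.58 (edgeR adjusted p = 0.999). It was 0.27 without KO neurospheres 2, the line with 72.1 CPM, and 0.99 without KO neurospheres 1 (edgeR adjusted p = 1 in both). In MEFs Setdb1 had 23.1, 29.5, 35.9, 27.1 and 27.5 CPM in KO lines and 25.4, 17.6 and 25.0 CPM in WT lines, a log2 difference of 0.33 (95% interval -0.14 to 0.81, edgeR adjusted p = 1). Cers2 overlaps Setdb1 on the opposite strand, with 3922 counts over the 14 libraries against 1098.4 for Setdb1.

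Kdm3a was the 1 member of 10 with KO MEFs apart from all WT MEFs, as were 1.85% of all genes tested, while 0 of 9 tested members were apart in neurospheres, against 7.2% of all genes. Its KO MEF lines were at 32.1 to 41.6 CPM and its WT MEF lines at 27.3 to 31.1 CPM. The log2 difference was 0.33 with a 95% interval of -0.02 to 0.67, an unadjusted p of 0.0638 and an edgeR adjusted p of 1. In neurospheres KO lines spanned 80.5 to 189 CPM and WT lines 104 to 141 CPM, and the log2 difference was 0.13 (95% interval -0.59 to 0.84).

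For the other genes the KO against WT differences lay between -0.41 (Ehmt2) and 0.10 (Cbx5) in neurospheres and between -0.25 (Suv39h2) and 0.29 (Trim28) in MEFs. Ehmt2 had 15.7, 12 and 18.9 CPM in KO neurospheres and 24.1, 17.8 and 21.0 CPM in WT neurospheres, with a 95% interval of -1.10 to 0.29 on the log2 scale. Suv39h2, untested in neurospheres, was at 3.72 to 9.80 CPM in KO neurospheres and 1.91 to 3.91 CPM in WT neurospheres, which overlapped. Cbx3 and Cbx5, with the highest counts, had 95% intervals of -0.61 to 0.47 and -0.46 to 0.66 in neurospheres and of -0.19 to 0.41 and -0.30 to 0.40 in MEFs. The widest interval belonged to Kdm4c in MEFs, -0.88 to 1.03 on the log2 scale, with KO lines at 9.67 to 24.8 CPM and WT lines at 8.73 to 29.5 CPM. The intervals of the HP1 genes were narrower than that of Kdm4c, which has fewer counts. Kdm4c also varied more between lines. Its SD over WT MEFs was 66.2% of the mean, against 27% for Suv39h2, which also has few counts. The MEF interval of Suv39h2 was narrower, at -0.88 to 0.38. What sets the widths was not tested.

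**Figure D3:**
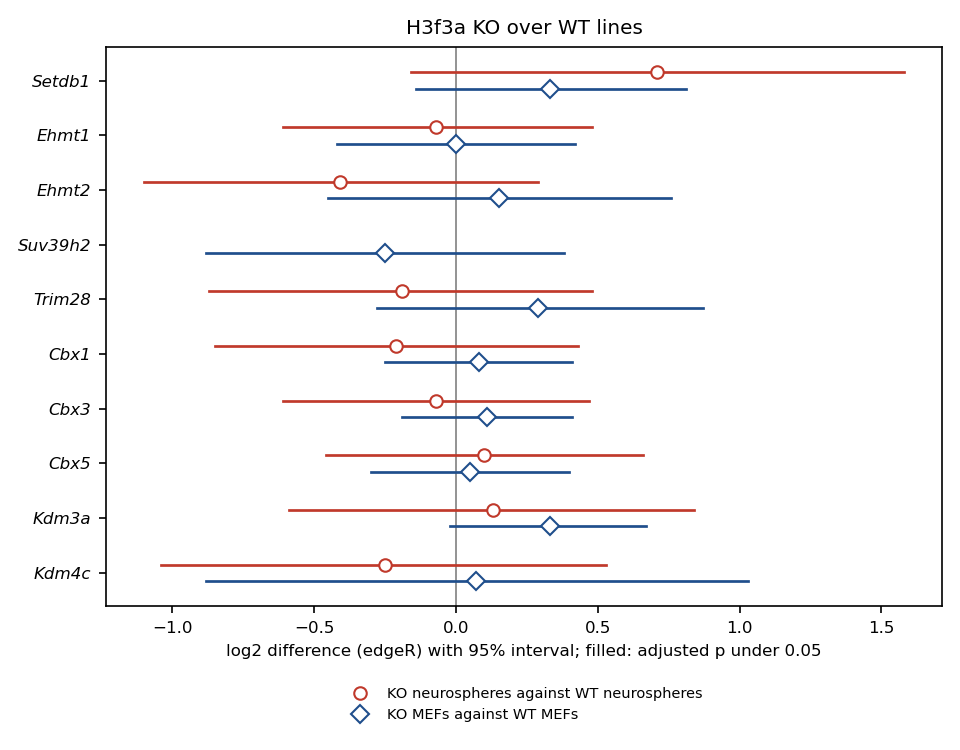
Log2 difference of KO over WT lines for each gene with its 95% interval, in neurospheres (circles, 3 against 3) and MEFs (diamonds, 5 against 3), from the edgeR fit of each comparison. All symbols are open, as no gene passed, and every interval includes 0. Suv39h2 was not tested in neurospheres.

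The KO against WT difference was also compared between the cell types. In this interaction 0 of 10 members and 0% of 12113 genes passed an edgeR adjusted p of 0.05, with 1 member and 366 genes at an unadjusted p under 0.05, and DESeq2 called 3 genes, none a member. The member with the smallest p was Suv39h2, whose KO against WT difference was higher in neurospheres than in MEFs by 1.31 ± 0.56 on the log2 scale (SE, edgeR adjusted p = 1). For Trim28 and Cbx1, which passed between the cell types in KO lines and not in WT lines, the interaction was -0.51 (95% interval -1.38 to 0.36) and -0.30 (-0.95 to 0.35). Neither passed.

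Cbx1 took a smaller share of the HP1 counts in every neurosphere line than in any MEF line. The summed level of the HP1 genes was 1379 ± 244 CPM in KO neurospheres, 1424 ± 99.7 CPM in WT neurospheres, 1311 ± 144 CPM in KO MEFs and 1236 ± 112 CPM in WT MEFs (SD, n = 3, 3, 5 and 3). Of this sum Cbx1 made up 15% ± 3.81 in KO neurospheres, 17.1% ± 0.823 in WT neurospheres, 25.6% ± 1.23 in KO MEFs and 25.6% ± 1.26 in WT MEFs. The highest share in a neurosphere line was 18% and the lowest in a MEF line 24.3%. Cbx3 held 46.4%, 47.8%, 43.2% and 42.4% in the same order of groups, and Cbx5 38.6%, 35.1%, 31.2% and 31.9%. On the deposited TPM scale, which divides by length, the Cbx1 share was 6.67% in KO neurospheres and 6.35% in WT neurospheres. It was 11.8% in KO MEFs and 13.7% in WT MEFs, so lower in neurospheres as on the count scale. The other shares depended on the scale. In the same order of groups, Cbx3 held 74.8%, 79.7%, 71% and 65.4% in TPM, and Cbx5 18.5%, 14%, 17.2% and 20.9%. The Cbx5 share in TPM was thus lower in WT neurospheres than in WT MEFs, the reverse of the count scale. No test was made of these shares.

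**Figure D4:**
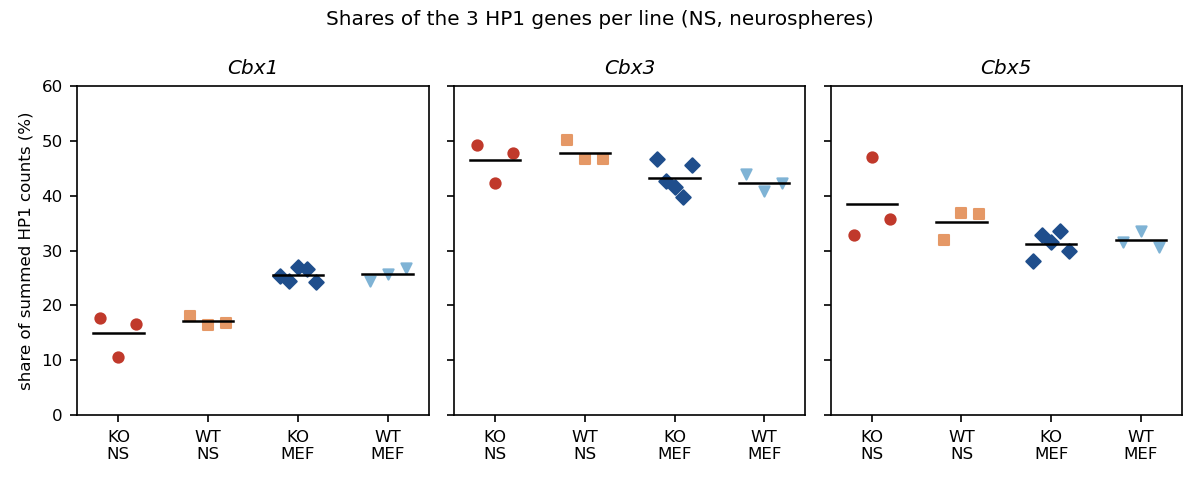
Share of Cbx1, Cbx3 and Cbx5 in their summed counts (percent, axis from 0) in each line, with group means as bars, for KO neurospheres (KO NS), WT neurospheres (WT NS), KO MEFs and WT MEFs. Cbx1 shares lie between 10.6% and 18% in neurospheres and between 24.3% and 27.0% in MEFs.

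Cbx5 (HP1 alpha) was read at 2 transcript ends. Most reads were assigned to Cbx5-202, a coding transcript of 8803 nucleotides that ends at position 103191544 of chromosome 15 (minus strand, GRCm38). The coding transcript Cbx5-203, of 1146 nucleotides, ends upstream at position 103199255. Its share of Cbx5 reads was 28.1% ± 3.07 in KO neurospheres, 28.8% ± 2.32 in WT neurospheres, 33.0% ± 2.59 in KO MEFs and 34.3% ± 1.91 in WT MEFs (SD). The lines of KO neurospheres (26.1% to 31.7%) and KO MEFs (30.2% to 37.0%) overlapped, whereas WT neurospheres (27.4% to 31.5%) lay below WT MEFs (32.2% to 35.9%). The shares rest on Salmon's division of reads between transcripts and were not tested. Ehmt2 reads went almost wholly (97.2%) to Ehmt2-205, a retained-intron transcript with the gene's own 3′ end.

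Genes of S phase and mitosis were read beside these results. The summed CPM of 14 such genes was 438, 122 and 2050 in KO neurospheres and 254, 720 and 1084 in WT neurospheres, against 2065, 3227, 3468, 1997 and 2095 CPM in KO MEFs and 1877, 3434 and 2007 CPM in WT MEFs. Of the 14, 3 were lower in KO neurospheres than in KO MEFs and 10 were lower in WT neurospheres than in WT MEFs at an edgeR adjusted p of 0.05, against 26.2% and 20.8% of all genes tested, and none was higher. KO neurospheres 3, at 2050 CPM, lay within the range of the MEF lines. In that line Suv39h2 (9.80 CPM) and Trim28 (75.6 CPM) lay within the MEF range, Cbx1 (275 CPM) just below it and Kdm3a (80.5 CPM) above every MEF line. For Trim28 this was not particular to that line. All WT neurosphere lines (57.8 to 64 CPM) also lay within the MEF range, as WT MEFs 2 was at 55 CPM. The part of proliferation in the cell type differences was not tested.

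Across the 6 neurosphere lines, Kdm3a on the log2 scale was lower where the log2 sum was higher, with Pearson's r = -0.93 (exact permutation p = 0.0111, adjusted p = 0.0651) and Spearman's rho = -0.94 (exact permutation p = 0.0167, adjusted p = 0.0871). Trim28 ran the other way, with r = 0.83 (exact permutation p = 0.0444, adjusted p = 0.148) and rho = 0.94 (exact permutation p = 0.0167, adjusted p = 0.0871). Neither passed after adjustment over the 20 relations computed. Without the 2 lines farthest from the median, KO neurospheres 2 and 3, r was -0.65 for Kdm3a and 0.45 for Trim28, so both rested largely on those lines. Of the 20, 10 were over the 8 MEF lines, and none of these passed after adjustment (lowest adjusted p 0.0651 by exact permutation). No pooled r is given for them, since the sums of the MEF lines formed separate groups of 3 and 5 lines. The 3 lines with the highest sums, KO MEFs 2, KO MEFs 3 and WT MEFs 2, had the 3 highest levels of Cbx5 (454 to 479 CPM), Cbx1 (348 to 393 CPM) and Kdm4c (21.2 to 29.5 CPM) among MEFs. This did not hold for the other members. Trim28, for one, was lowest in WT MEFs 2 (55 CPM) and KO MEFs 3 (65.6 CPM). The share of all genes with this order was not computed, so the order cannot be read as particular to these members. KO MEFs 3 and WT MEFs 2 were also the MEF lines farthest from the other lines of their groups over the genes kept by the filter.

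**Figure D5:**
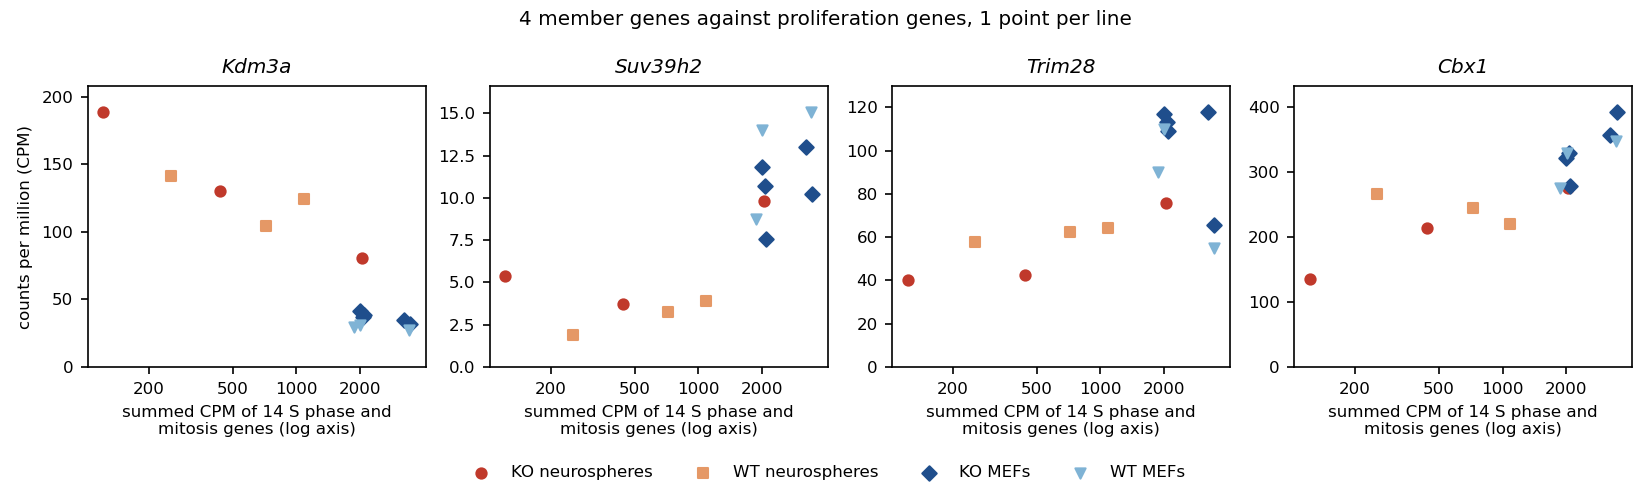
CPM of Kdm3a, Suv39h2, Trim28 and Cbx1 (linear axis from 0) against the summed CPM of 14 S phase and mitosis genes (log axis), 1 point per line. KO neurospheres 3 lies at 2050 on the horizontal axis, among the MEF lines. There Kdm3a is at 80.5 CPM, above all MEF lines, and Suv39h2 at 9.80 CPM, within them.

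Other genes of the same chromatin pathway were read from wider lists. In KO against WT lines none of their members passed in neurospheres or in MEFs. Between the cell types the H3K9 demethylases other than Kdm3a and Kdm4c gave calls in 1 direction: 4 of 8 tested were higher in KO neurospheres than in KO MEFs and 4 of 8 were higher in WT neurospheres than in WT MEFs, and none was lower. Over all genes, 25.4% were higher and 26.2% lower in the KO comparison, and 20.8% were higher and 20.8% lower in the WT comparison. Jmjd1c, a close relative of Kdm3a, averaged 376 ± 179 CPM in KO neurospheres and 75.7 ± 11.4 CPM in KO MEFs, and 336 ± 47.0 CPM in WT neurospheres and 68.6 ± 22.5 CPM in WT MEFs. Its log2 differences were 2.33 (edgeR adjusted p = 0.000163) and 2.32 (edgeR adjusted p = 0.000784), and both held in every fit without 1 line. Kdm7a was higher by 2.20 and 1.72 and Kdm3b by 0.93 and 0.99 in the KO and WT comparisons (log2 scale), Kdm4b by 1.25 in the KO and Kdm1a by 0.78 in the WT comparison. Of these, only the KO value of Kdm7a held in every fit without 1 line. In the KO comparison Kdm3b was lost without KO neurospheres 1 and Kdm4b without KO neurospheres 2 (edgeR adjusted p = 0.0971 and 0.0728). In the WT comparison 1 or more of the others was lost without WT neurospheres 1 or 2 or any WT MEF line, with an edgeR adjusted p of up to 0.153.

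Among partners of Trim28, 2 of 10 tested were higher and 3 lower in neurospheres in each comparison. Over all genes tested, 25.4% were higher and 26.2% lower in the KO comparison, and 20.8% each way in the WT comparison. The nucleosome remodelling subunit Chd3 averaged 19.0 ± 4.73 CPM in KO neurospheres and 156 ± 53.4 CPM in KO MEFs (log2 difference -3.01, edgeR adjusted p = 0.000144), and 26.0 ± 8.62 CPM in WT neurospheres and 141 ± 81.8 CPM in WT MEFs (-2.43, edgeR adjusted p = 0.0120). The zinc finger gene Zfp568 was lower, with log2 differences of -1.68 in the KO and -2.31 in the WT comparison, as was the deacetylase gene Hdac1 (-1.22 and -0.99). Zfp445, a zinc finger gene of imprinting control, was higher by 0.77 in the KO comparison, and the remodelling ATPase Chd4 by 0.66 in the WT comparison. These calls held in every fit without 1 line, except that of Chd4, which ended without any 1 of WT neurospheres 1 or 2 or WT MEFs 1, 2 or 3 (log2 difference down to 0.51, edgeR adjusted p up to 0.119).

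Of 11 tested genes of heterochromatin maintenance, 3 were higher and 2 lower in neurospheres in each comparison. This and the counts below stand beside 25.4% higher and 26.2% lower over all genes tested in the KO comparison. In the WT comparison the share was 20.8% each way. Whether the lists differ from all genes was not tested. The H4K20 methyltransferase genes Kmt5b and Kmt5c, whose products act after H3K9 trimethylation, were higher by 1.02 and 2.37 in the KO and by 1.17 and 1.97 in the WT comparison (log2 scale). The remodeller gene Hells was lower, with log2 differences of -1.99 (edgeR adjusted p = 0.0251) in the KO and -2.88 (edgeR adjusted p = 0.0126) in the WT comparison, at 32.4 ± 37.8 CPM in KO neurospheres and 133 ± 33.7 CPM in KO MEFs, and at 17.7 ± 14.8 CPM in WT neurospheres and 133 ± 10.7 CPM in WT MEFs. Smchd1, a gene of X inactivation, was lower too, with log2 differences of -0.56 in the KO and -0.74 in the WT comparison. Among 15 tested readers in the KO comparison 6 were higher and 3 lower, and among 16 in the WT comparison 2 were higher and 3 lower. Lbr, the HP1-binding lamin B receptor, was lower, with log2 differences of -1.09 in the KO and -1.43 in the WT comparison, as was Chaf1a, a chromatin assembly subunit (-1.12 and -1.66), whereas Pogz was higher by 1.04 and the Polycomb gene Cbx8 by 0.98 in the KO comparison, and Fam208a by 0.84 and the Polycomb gene Cbx7 by 2.49 in the WT comparison. Of the 9 tested methyltransferases and partners in the KO comparison 1 was higher and 2 lower, and of 8 in the WT comparison 0 were higher and 2 lower. Zfp644 was higher by 0.47 in the KO comparison, and Cdyl was lower in both, at 16.2 ± 2.90 CPM in KO neurospheres and 28.8 ± 7.56 CPM in KO MEFs, and at 14.5 ± 2.37 CPM in WT neurospheres and 29.5 ± 9.99 CPM in WT MEFs. Mecom, with log2 differences of -5.81 in the KO and -4.06 in the WT comparison, was at 0.817 ± 1.42 CPM in KO neurospheres and 58.3 ± 73.2 CPM in KO MEFs, and at 4.89 ± 7.50 CPM in WT neurospheres and 79.4 ± 56.2 CPM in WT MEFs, with a wide spread between lines. In every fit without 1 line the KO calls of Kmt5b, Kmt5c, Lbr, Pogz and Mecom and the WT calls of Kmt5b, Hells and Smchd1 held. The KO calls of Hells, Smchd1, Chaf1a, Cbx8, Cdyl and Zfp644 ended without KO neurospheres 1, KO neurospheres 2 or KO MEFs 2, among others, and the other WT calls without 1 or more lines of either cell type, with edgeR adjusted p up to 0.158. Of the 23 calls named by rule from all wider lists in the KO comparison 12 held in every fit without 1 line, and of the 22 in the WT comparison 8 did.

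The summed CPM of 18 germline genes that H3K9 and DNA methylation keep silent in somatic cells was 8.75 to 24.4 in KO neurospheres, 7.11 to 12.1 in WT neurospheres, 2.40 to 9.72 in KO MEFs and 3.96 to 7.91 in WT MEFs. Of the 18, 13 were at 0 in all KO neurospheres, 14 in all WT neurospheres, 9 in all KO MEFs and 13 in all WT MEFs. Brdt, the bromodomain gene of the testis, was the only one with enough counts to be tested, and it was at 15.8 ± 7.47 CPM in KO neurospheres and 2.67 ± 2.20 CPM in KO MEFs (log2 difference 2.57, edgeR adjusted p = 0.00857). Between WT neurospheres and WT MEFs the log2 difference of Brdt was 1.52, in the same direction, and it did not pass (unadjusted edgeR p under 0.05). The summed CPM of the 18 genes was 24.4, 21.6 and 8.75 in KO neurospheres, and most of the mean of these sums came from Brdt. The log2 differences of Brdt between KO and WT lines were 0.87 in neurospheres and -0.20 in MEFs, and neither passed.

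The profiles most like those of the members over the 14 libraries were found by the root mean square difference of centred log2 CPM, among 6910 genes with a mean of at least 20 CPM. For Kdm3a these were Gna13 (0.17), Gm47628 (0.21) and the mitochondrial gene mt-Co1 (0.22). For Suv39h2 they were Ing5 (0.29), Orc6 (0.30) and Aida (0.32). For Trim28 they were Tarbp2, Pdap1 and Xpnpep1 (0.17 to 0.18) and for Cbx1 Rnf168, Ap2m1 and Tmem167 (0.16 to 0.17). The nearest gene of the other 6 members lay at 0.13 (Cbx3 with Rab14) to 0.29 (Kdm4c with Sun2). The profiles share library depth and the 2 cell types, and the likeness is a description of these libraries.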

How the data were processed

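RNA of 14 primary lines was sequenced with the QuantSeq 3′ FWD kit, which reads the sense strand of transcript ends, per the labels' protocols. The deposited values are expected counts of reads for each transcript, from Salmon 1.1.0 per the submitters' processing notes, which also name edgeR without a version. They also hold the authors' TPM from the same runs, used here for levels between genes and as an alternative with a pseudocount of 1. Not given in the sources used here are the transcript set, the build and the mapping options. Identifiers were matched to GENCODE M21 (GRCm38): 115560 of 116945 transcripts matched with version and length, 385 by identifier alone, and 1000, with 0.251% to 0.425% of reads, were left out. Counts were summed per gene and rounded.

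Each comparison was fitted apart in edgeR 4.0.16 (R 4.3.3) with TMM, the default filter on low counts, the robust quasi-likelihood test and Benjamini-Hochberg adjustment over all genes tested, at 0.05. The interaction was fitted over all 14 libraries. CPM was scaled by TMM factors over all 14 libraries, errors are SD over lines or SE of the fit, and 95% intervals come from the fit. The filter kept all members except Suv39h2 in KO against WT neurospheres. Alternatives were DESeq2 1.42.0 and its size factors, no filter, a minimum of 20 counts, TPM in limma 3.58.1, protein_coding transcripts only, 1 fit over all libraries, a replicate block, and each line left out. The tests were also run on simulated counts in which most genes were set not to differ, unlike in the cell type comparisons. The outcome is not given and is not used as support. Permutation tests used SciPy 1.17.1 and were two-sided. Line pairs of 1 group differed by more than sampling noise (chi-square per degree of freedom of at least 3.99).

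The members, wider lists and tests were chosen with earlier results of these data known. Named are the 10 members, H3f3a, up to 4 passing genes per wider list and comparison by size of change, and the 3 nearest profiles per member. The relation to S phase and mitosis genes, the shares of HP1 genes and transcripts, the promoter motif and the setting without KO MEFs 3 and WT MEFs 2 were chosen after the data were seen. Tasor is not listed under that symbol, but under its older symbol Fam208a.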

Additional observations from a re-analysis of the deposited data

Results flagged for a closer look

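Members were checked for a line far from the rest of its group, which could be done in KO MEFs, the only group of more than 3 lines, over 14 sets of values, of which chance flags about 1 in 20. KO MEFs 3 stood apart for 2 genes. Its Trim28 level, 65.6 CPM, was the lowest of its group, with the next line at 109 CPM, a gap of 0.844 of the range against a critical value of 0.71. Its Ehmt2 level, 22.3 CPM, was the highest, with the next line at 14.4 CPM, a gap of 0.775 of the range. The same line had the highest summed S phase and mitosis genes, 3468 CPM, and the smallest library among MEFs, with 2080798 counts. Their part in these values was not tested.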

How the results depend on the processing

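No member was called between KO and WT lines under any alternative, and Kdm3a in both cell type comparisons and Suv39h2 in the WT one were called under all. The counts of all genes called moved as follows. In KO against WT MEFs it was 0 with the replicate block and 3 without KO MEFs 3 and WT MEFs 2, in KO against WT neurospheres 7 in DESeq2, 2 with no filter and 0 to 2 without 1 line each, and in the interaction 3 in DESeq2. In KO neurospheres against KO MEFs the replicate block left 3295 genes and 1 member (Trim28 log2 -0.90, adjusted p = 0.156, Cbx1 -0.82, adjusted p = 0.0825), and the fits without 1 line each called 1 to 4 members there and 2 to 4 in WT neurospheres against WT MEFs. In the KO comparison the lowest count came without KO neurospheres 2 (1 member) and the highest without KO neurospheres 3, where Suv39h2 also passed. In the WT comparison the highest count came without WT MEFs 2 (4 members). Same-numbered lines had deviations correlated at -0.54 to 0.18, no set of pairs all above 0.1. With so few pairs, and with lines of 1 embryo not bound to deviate alike, this check cannot exclude shared embryos or litters.

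Log2 differences changed sign as follows. In KO against WT MEFs Cbx5 was -0.03 with TPM, Cbx1 -0.63 with protein_coding transcripts only, which leave few of its reads, and Ehmt1 -0.12 without KO MEFs 3 and WT MEFs 2. In KO against WT neurospheres Ehmt1 was 0.21 and Kdm4c 0.07 with TPM, and in WT neurospheres against WT MEFs Ehmt1 was -0.05 and Cdyl 0.04. In KO neurospheres against KO MEFs Ehmt2 was -0.13 with TPM, and Ehmt1 -0.09 and Ehmt2 -0.07 with the block. In the interaction Ehmt1 was 0.19 with TPM, Cbx5 -0.06 with the block, and Ehmt1 0.03 and Cbx5 -0.03 without the 2 MEF lines. The causes were not tested.

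Without 1 line each, KO against WT MEFs gave -0.09 to 0.13 for Ehmt1, -0.03 to 0.25 for Ehmt2, -0.01 to 0.15 for Cbx1, -0.02 to 0.16 for Cbx5 and -0.23 to 0.75 for Kdm4c. KO against WT neurospheres gave -0.23 to 0.13 for Ehmt1, -0.48 to 0.02 for Cbx1, -0.27 to 0.04 for Cbx3, 0.00 to 0.28 for Cbx5 and -0.22 to 0.38 for Kdm3a. WT neurospheres against WT MEFs gave -0.06 to 0.33 for Ehmt1, and KO neurospheres against KO MEFs 0.00 to 0.16 for Ehmt1, -0.09 to 0.26 for Ehmt2 and -0.16 to 0.28 for Kdm4c. The interaction gave -0.08 to 0.62 for Setdb1, -0.24 to 0.13 for Ehmt1, -0.06 to 0.20 for Cbx5 and -0.55 to 0.04 for Kdm3a. TPM moved the median of all genes to -0.12 in KO neurospheres against KO MEFs, against -0.01. Depth limits Suv39h2, with 5 to 46 counts per line.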
